A study of Mus musculus with 12 samples.

Results

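The genes described here encode 8 RNA-binding proteins that set how long inflammatory mRNAs last: Zfp36, Zfp36l1 and Zfp36l2 of the tristetraprolin (TTP) family, Zc3h12a and Zc3h12c of the Regnase family, Rc3h1 and Rc3h2 of the Roquin family, and Elavl1, which encodes HuR. They were chosen by symbol from the 55335 genes of the deposited table, where each symbol had a row, and all 8 were among the 12622 genes with enough signal to be tested. RNA sequencing was made of 12 libraries of mouse bone marrow-derived macrophages (BMDMs), which are made by culturing bone marrow cells until they become macrophages. There were 3 libraries in each of 4 groups. Wild-type control and Nlrp3-/- control BMDMs were left without treatment. Wild-type LPS+ATP and Nlrp3-/- LPS+ATP BMDMs received lipopolysaccharide (LPS) for 4 hours, followed by 30 minutes of ATP, by the sample labels, while the methods of the study give longer times for both agents. LPS primes the NLRP3 inflammasome and ATP triggers it. The labels give no age, sex or strain, and do not say whether the replicates came from separate mice or cultures, so that p-values measure the spread between these libraries only.

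TTP and its relatives bind AU-rich elements, runs of A and U behind the coding part of many cytokine mRNAs, and recruit the CCR4-NOT deadenylase, which removes the poly(A) tail. Regnase-1, the product of Zc3h12a, is an RNase that cuts mRNAs at stem-loops, and Roquin-1 and Roquin-2, the products of Rc3h1 and Rc3h2, bind stem-loops and also recruit deadenylases. HuR binds AU-rich elements as well but is known for stabilizing mRNAs, so that it stands in the group as a counterpart to the decay factors. In macrophages, Zfp36 and Zc3h12a are known as genes that LPS induces and whose products limit the cytokine response.

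AU-rich elements are shown first because the mRNAs of most of these factors carry the letters of the motif that the TTP family binds. The heptamer TATTTAT and the nonamer TTATTTATT, which holds the heptamer, were searched on the transcript strand of GENCODE M21 transcripts, from the stop codon to the end of the longest annotated form of each gene. The nonamer was found in 6 of the 8 genes, against 7.67% of 20785 genes, and the heptamer in 7 of the 8, against 27.7%. In the lines that follow, the nonamer is in capitals with 10 bases on each side.

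Zfp36, from base 589 after the stop codon without the flank: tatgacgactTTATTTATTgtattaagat

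Zfp36l1, from base 1404: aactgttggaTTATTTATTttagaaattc

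Zfp36l2, from base 821: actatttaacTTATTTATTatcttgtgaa

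Rc3h1, from base 2256: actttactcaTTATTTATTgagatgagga

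Rc3h2, from base 2095: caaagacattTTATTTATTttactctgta

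Elavl1, from base 3794, the first of 8 nonamers, some of which overlap: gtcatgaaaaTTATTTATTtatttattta

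Tnf, a classical target of TTP and no member of the group, from base 438, the first of 5 nonamers: tttgcacttaTTATTTATTatttatttat

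The share of genes that hold the motif was higher among longer genes, so that the members are best read against genes of their own length. Zfp36, with 774 bases after its stop codon, lay in a class of 500 to 1000 bases. Of that class 4.03% held the nonamer and 18.3% the heptamer. Zfp36l1 and Zfp36l2, with 1835 and 1822 bases, lay in a class of 1000 to 2000 bases with shares of 9.06% and 33.3%. Zc3h12c, Rc3h1, Rc3h2 and Elavl1 lay between 4000 and 8000 bases, where the shares were 22.4% and 68.5%. For these 4 genes, holding the heptamer was thus common for their length. Zc3h12a, with 856 bases, held neither motif, and Zc3h12c held the heptamer 2 times and no nonamer. The 3 genes of the TTP family each held 3 heptamers. A match of letters is a description of the sequence and no evidence of binding in these cells.

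Promoters of 300 bases, from 250 before to 50 after a start site, were given by RefSeq on GRCm38.p6 for 7 of the 8 genes, all but Zfp36l2. They were searched on both strands for the NF-kB motif, the CArG box of serum response factor, the AP-1 motif TGANTCA and the TATA box TATAAA, which are held by 4.51%, 1.63%, 7.81% and 13.6% of 32851 promoters. The promoters of Zfp36 and Zfp36l1 are shown because they held most of the matches and belong to the family members that moved apart with LPS+ATP. In both, motifs are in capitals.

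Zfp36, chr7:28379179-28379478, minus strand, with a CArG box 58 to 49 bases before the start: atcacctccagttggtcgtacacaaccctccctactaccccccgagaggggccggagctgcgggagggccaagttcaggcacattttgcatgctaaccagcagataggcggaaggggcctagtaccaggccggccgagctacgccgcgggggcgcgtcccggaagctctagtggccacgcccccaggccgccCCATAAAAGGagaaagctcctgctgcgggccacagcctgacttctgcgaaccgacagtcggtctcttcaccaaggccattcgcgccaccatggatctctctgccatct

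Zfp36l1, chr12:80112964-80113263, minus strand, with an AP-1 motif 129 to 123 and a TATA box 29 to 24 bases before the start: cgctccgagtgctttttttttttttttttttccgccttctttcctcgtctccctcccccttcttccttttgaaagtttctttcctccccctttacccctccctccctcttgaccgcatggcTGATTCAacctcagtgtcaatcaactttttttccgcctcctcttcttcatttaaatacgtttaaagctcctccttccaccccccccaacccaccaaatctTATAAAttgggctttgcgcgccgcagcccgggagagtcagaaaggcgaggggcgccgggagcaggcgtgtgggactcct

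The other match was an AP-1 motif in the promoter of Rc3h1, 133 to 127 bases before the start. None of the motifs searched occurred in the promoters of Zc3h12a, Zc3h12c, Rc3h2 and Elavl1, and the NF-kB motif occurred in none of the 8 promoters of the 7 genes, which says only that these letters were not in these windows.

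Levels are given in FPKM, a fragment count divided by the length of the gene and the mapped fragments of its library, as the authors deposited them. The table carries no read counts, so that depth is unknown in reads. The steps between low values gave a relative depth of 1.0 to 1.218, with the widest spread among the wild-type control libraries, and the sum of FPKM over genes was 283278 to 299393 per library. Nlrp3, the deleted gene, was 9.24 to 10.1 FPKM in wild-type control, 32.1 to 33.6 FPKM in wild-type LPS+ATP and listed at 0 in all 6 Nlrp3-/- libraries. All 8 macrophage markers were above 0 in every library. Genotype moved with other measures. Xist was at most 0.0416 FPKM in wild-type and at least 32.8 FPKM in Nlrp3-/- libraries, and 4 Y-linked genes were at 0 in the Nlrp3-/- libraries, so that sex and genotype cannot be told apart.

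Differences were tested with limma on log2(FPKM + 1) and adjusted over the 12622 tested genes by the Benjamini-Hochberg method. A differentially expressed gene (DEG) passed an adjusted p of 0.05 and a fold limit, set at 1 on the log2 scale for rises as for falls, and a gene is said to rise or fall where the adjusted p alone passed. Log2 fold changes on this scale understate the change of low genes. The level of the typical gene moved between groups, by a median log2 fold change of -0.255 with LPS+ATP in wild-type and -0.242 in Nlrp3-/- BMDMs, and by 0.088 in control and 0.106 with LPS+ATP between genotypes. Median-ratio scaling, which sets the typical gene to no change, moved these medians by 0.246, 0.229, -0.119 and -0.147. The DEGs with LPS+ATP were then 1399 higher and 876 lower in wild-type and 1093 higher and 604 lower in Nlrp3-/- BMDMs, in place of 1041 higher and 1411 lower, and 838 higher and 1036 lower.

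LPS+ATP changed which factors were abundant. In wild-type BMDMs, Zc3h12a and Zc3h12c rose and Zfp36l1 and Zfp36l2 fell past the fold limit, Zfp36 rose below it, and Rc3h2 and Elavl1 did not pass the test. The 4 DEGs of 8, 2 higher and 2 lower, compare with 19.4% of all tested genes, 8.25% higher and 11.2% lower. By the adjusted p alone, 3 rose and 3 fell, against 76.4% of all tested genes, 23.3% higher and 53.1% lower, and the libraries of both groups did not overlap for 6 of 8, against 78.1% of all tested genes, so that these wider counts were near the background. The median log2 fold change of the 8 genes was 0.035. The controls of each genotype enter 2 comparisons, stimulation and genotype, whose values are therefore not independent of each other.

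**Figure D1:**
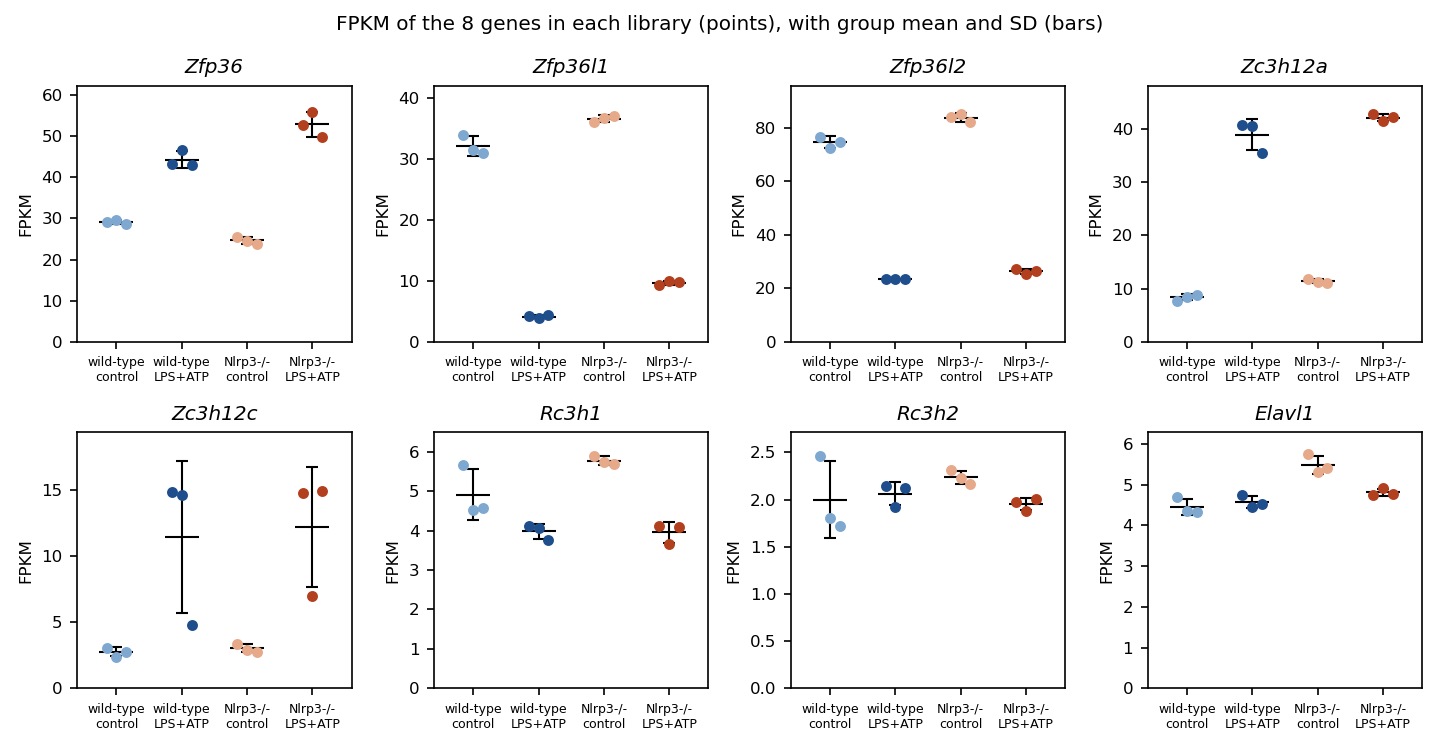
FPKM (linear axis from 0) of each of the 8 genes in the 12 libraries, with points for libraries and bars for the group mean and SD (n = 3). Zfp36l1 lay at 3.84 to 4.31 FPKM in wild-type LPS+ATP and at 9.35 to 9.99 FPKM in Nlrp3-/- LPS+ATP libraries, and 1 library of each LPS+ATP group lay far below the others for Zc3h12c.

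Zfp36 (ENSMUSG00000044786), which encodes TTP, was 29.0, 29.6 and 28.7 FPKM in the wild-type control libraries and 43.3, 46.6 and 43.0 FPKM in the wild-type LPS+ATP libraries. It was 25.6, 24.5 and 23.9 FPKM in Nlrp3-/- control and 52.7, 56.0 and 49.8 FPKM in Nlrp3-/- LPS+ATP libraries. The 4 groups did not overlap, with both LPS+ATP groups above both control groups. The mean rose 1.52-fold in wild-type (log2 fold change 0.59, SE 0.05, limma adjusted p = 4.30e-07) and 2.14-fold in Nlrp3-/- BMDMs (log2 fold change 1.07, SE 0.05, limma adjusted p = 2.96e-09). The second passed the fold limit and the first did not. After median-ratio scaling the wild-type value was 0.91, closer to that limit, and the Nlrp3-/- value 1.35.

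Zfp36l1 (ENSMUSG00000021127) had the log2 fold change of largest size among the 8 genes with LPS+ATP in wild-type BMDMs without scaling between libraries. After median-ratio scaling it was at -2.41 in wild-type and -1.53 in Nlrp3-/- BMDMs, against 2.41 and 2.07 for Zc3h12a. Its product, also called BRF1, shares the zinc fingers of TTP. It was 33.9, 31.4 and 30.9 FPKM in wild-type control and 4.24, 3.84 and 4.31 FPKM in wild-type LPS+ATP libraries. In Nlrp3-/- BMDMs it was 36.0, 36.7 and 37.1 FPKM in control and 9.35, 9.99 and 9.75 FPKM with LPS+ATP. The 4 groups again did not overlap, and every LPS+ATP library was below every control library. The wild-type mean was 7.77-fold lower with LPS+ATP (log2 fold change -2.69, SE 0.05, limma adjusted p = 8.95e-13), and the Nlrp3-/- mean 3.77-fold lower (log2 fold change -1.81, SE 0.05, limma adjusted p = 3.11e-11). Among the levels of all tested genes, Zfp36l1 went from percentile 90.0 to 49.1 in wild-type and from 91.1 to 69.0 in Nlrp3-/- BMDMs. In GENCODE M21 the transcript Gm26669 overlaps Zfp36l1 on the other strand and also came up in the search for near copies. Whether counting used strand is not given in the sources used here.

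Zfp36l2 (ENSMUSG00000045817), whose product is known as BRF2, was the most abundant of the 8 genes in both controls. It was 76.8, 72.4 and 74.8 FPKM in wild-type control, 23.4, 23.7 and 23.5 FPKM in wild-type LPS+ATP, 84.2, 85.4 and 82.2 FPKM in Nlrp3-/- control and 27.2, 25.4 and 26.4 FPKM in Nlrp3-/- LPS+ATP libraries. The LPS+ATP libraries lay below all controls in both genotypes. The fall was 3.17-fold in wild-type (log2 fold change -1.62, SE 0.03, limma adjusted p = 2.71e-12) and 3.19-fold in Nlrp3-/- BMDMs (log2 fold change -1.64, SE 0.03, limma adjusted p = 3.31e-12). AC132455.1 overlaps Zfp36l2 on the other strand in GENCODE M21, so that the same limit on strand holds.

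With these changes the makeup of the TTP family turned over. Zfp36 was 21.4% ± 0.704 (SD, n = 3) of the family's summed FPKM in wild-type control and 61.5% ± 1.18 (SD, n = 3) in wild-type LPS+ATP. Zfp36l2 went from 55.0% ± 0.708 (SD, n = 3) to 32.7% ± 0.682 (SD, n = 3), and Zfp36l1 from 23.6% ± 0.647 (SD, n = 3) to 5.75% ± 0.495 (SD, n = 3). A share within a library does not depend on scaling between libraries. In Nlrp3-/- BMDMs, Zfp36 went from 17.0% ± 0.486 (SD, n = 3) to 59.4% ± 1.69 (SD, n = 3) and Zfp36l1 from 25.2% ± 0.625 (SD, n = 3) to 10.9% ± 0.428 (SD, n = 3). The ratio of Zfp36 to Zfp36l1 went from 0.856 to 0.942 in wild-type control to 9.96 to 12.1 in wild-type LPS+ATP, and from 0.644 to 0.711 to 5.11 to 5.64 in Nlrp3-/- BMDMs, so that the 2 LPS+ATP groups did not overlap. The summed FPKM of the family was 135.8 ± 3.37 (SD, n = 3) and 71.97 ± 1.87 (SD, n = 3) in wild-type control and LPS+ATP, and 145.2 ± 1.82 (SD, n = 3) and 88.86 ± 2.67 (SD, n = 3) in Nlrp3-/- BMDMs. Shares and sums were not tested.

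**Figure D2:**
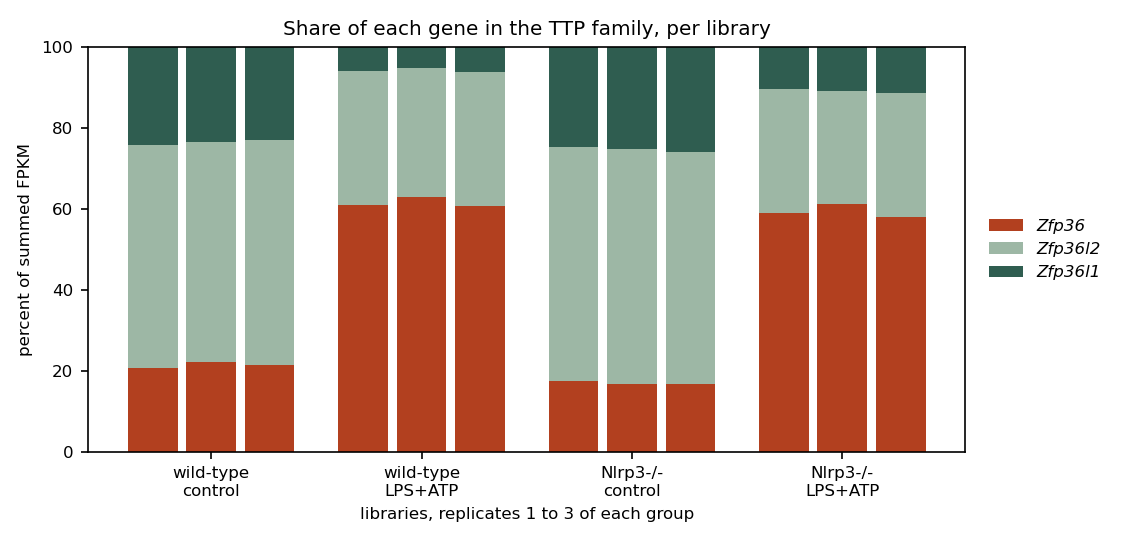
Percent of the summed FPKM of Zfp36, Zfp36l2 and Zfp36l1 taken by each gene, as a stacked bar for each of the 12 libraries in 4 groups. Zfp36 takes 60.7 to 62.9% in wild-type LPS+ATP libraries against 20.8 to 22.2% in wild-type control libraries, and Zfp36l1 takes 10.5 to 11.3% in Nlrp3-/- LPS+ATP against 5.18 to 6.09% in wild-type LPS+ATP libraries.

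Zc3h12a (ENSMUSG00000042677), which encodes Regnase-1, was 7.75, 8.39 and 8.87 FPKM in wild-type control and 40.7, 40.4 and 35.5 FPKM in wild-type LPS+ATP libraries. It was 11.8, 11.3 and 11.0 FPKM in Nlrp3-/- control and 42.7, 41.5 and 42.1 FPKM in Nlrp3-/- LPS+ATP libraries. The controls of both genotypes lay apart, while the highest wild-type LPS+ATP library came within 1 FPKM of the lowest Nlrp3-/- one. The rise was 4.66-fold in wild-type (log2 fold change 2.09, SE 0.06, limma adjusted p = 3.43e-11) and 3.70-fold in Nlrp3-/- BMDMs (log2 fold change 1.80, SE 0.06, limma adjusted p = 1.75e-10). With it, Zc3h12a went from percentile 63.8 to 91.7 of all tested genes in wild-type BMDMs. No near copy or overlapping gene was found for it in GENCODE M21.

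Zc3h12c (ENSMUSG00000035164), which encodes Regnase-3, a relative of Regnase-1 found in macrophages, was 3.08, 2.40 and 2.78 FPKM in wild-type control and 14.9, 14.6 and 4.82 FPKM in wild-type LPS+ATP libraries. In Nlrp3-/- BMDMs it was 3.36, 2.92 and 2.77 FPKM in control and 14.8, 6.97 and 14.9 FPKM with LPS+ATP. Replicate 3 of wild-type LPS+ATP and replicate 2 of Nlrp3-/- LPS+ATP stood apart from the other libraries of their groups, though each was still above all controls. The log2 fold change was 1.59 in wild-type (SE 0.36, limma adjusted p = 0.00189) and 1.65 in Nlrp3-/- BMDMs (SE 0.36, limma adjusted p = 0.00161). Without both libraries, an alternative chosen after the values were seen, it was 2.07 (SE 0.09, limma adjusted p = 3.51e-08) and 1.98 (SE 0.09, limma adjusted p = 6.63e-08). These libraries did not stand apart in general. Of the 12622 tested genes, 99 lay over 2-fold below both other libraries in the first and 92 in the second, against 75 to 121 over the 12 libraries.

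Rc3h1 (ENSMUSG00000040423) was 5.65, 4.52 and 4.57 FPKM in wild-type control, 4.11, 4.06 and 3.77 FPKM in wild-type LPS+ATP, 5.89, 5.74 and 5.68 FPKM in Nlrp3-/- control and 4.11, 3.65 and 4.09 FPKM in Nlrp3-/- LPS+ATP libraries. Controls were above LPS+ATP libraries in both genotypes. The fall was 1.23-fold in wild-type (log2 fold change -0.24, SE 0.07, limma adjusted p = 0.00975) and 1.46-fold in Nlrp3-/- BMDMs (log2 fold change -0.45, SE 0.07, limma adjusted p = 0.000165). The wild-type log2 fold change was 0.03 after median-ratio scaling, so that its direction depends on the scaling.

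Rc3h2 (ENSMUSG00000075376), the lowest of the 8 genes, stayed between 1.72 and 2.47 FPKM in all 12 libraries. Its log2 fold change with LPS+ATP was 0.04 in wild-type (95% interval -0.14 to 0.22, limma adjusted p = 0.685) and -0.13 in Nlrp3-/- BMDMs (95% interval -0.31 to 0.05, limma adjusted p = 0.169), and both intervals lie inside the fold limit of 1. After median-ratio scaling the wild-type value was 0.26 (SE 0.08, limma adjusted p = 0.0124). The highest and the lowest value were both in wild-type control, where replicate 1 was 2.47 FPKM and the others 1.81 and 1.72 FPKM.

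Elavl1 (ENSMUSG00000040028) was 4.69, 4.35 and 4.33 FPKM in wild-type control, 4.74, 4.45 and 4.53 FPKM in wild-type LPS+ATP, 5.74, 5.30 and 5.41 FPKM in Nlrp3-/- control and 4.75, 4.91 and 4.78 FPKM in Nlrp3-/- LPS+ATP libraries. The wild-type groups overlapped, and the Nlrp3-/- control libraries lay above the rest. With LPS+ATP the log2 fold change was 0.03 in wild-type (95% interval -0.07 to 0.13, limma adjusted p = 0.541) and -0.16 in Nlrp3-/- BMDMs (95% interval -0.26 to -0.06, limma adjusted p = 0.00881). After median-ratio scaling these values were 0.31 (SE 0.045, limma adjusted p = 8.05e-05) and 0.09 (SE 0.045, limma adjusted p = 0.108), so that the direction of Elavl1 against the typical gene depends on the scaling. Against Elavl1 in the same library, which no scaling moves, Zfp36l1 went from a ratio of 7.20 ± 0.0558 (SD, n = 3) to 0.902 ± 0.0453 (SD, n = 3) in wild-type BMDMs, and Zc3h12a from 1.88 ± 0.202 (SD, n = 3) to 8.50 ± 0.623 (SD, n = 3).

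In Nlrp3-/- BMDMs as a whole, 5 of the 8 genes were DEGs with LPS+ATP, 3 higher and 2 lower, against 14.8% of all tested genes, 6.64% higher and 8.21% lower. By the adjusted p alone, 3 rose and 4 fell, against 74.3%, 20.6% higher and 53.8% lower. No gene's control and LPS+ATP libraries overlapped, against 77.4% of all tested genes without overlap. The median log2 fold change of the 8 genes was -0.144.

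The order of the genes by FPKM changed accordingly. In both controls it ran from Zfp36l2 through Zfp36l1, Zfp36, Zc3h12a, Rc3h1, Elavl1 and Zc3h12c to Rc3h2, where the libraries of Rc3h1 and Elavl1 overlapped in both genotypes and those of Zc3h12c and Rc3h2 in wild-type. In wild-type LPS+ATP it ran from Zfp36 through Zc3h12a, Zfp36l2, Zc3h12c, Elavl1, Zfp36l1 and Rc3h1 to Rc3h2, and Zfp36l1 and Rc3h1 overlapped. In Nlrp3-/- LPS+ATP, Zfp36l1 stood above Elavl1 and overlapped with Zc3h12c. FPKM is per length, which allows this order between genes.

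**Figure D3:**
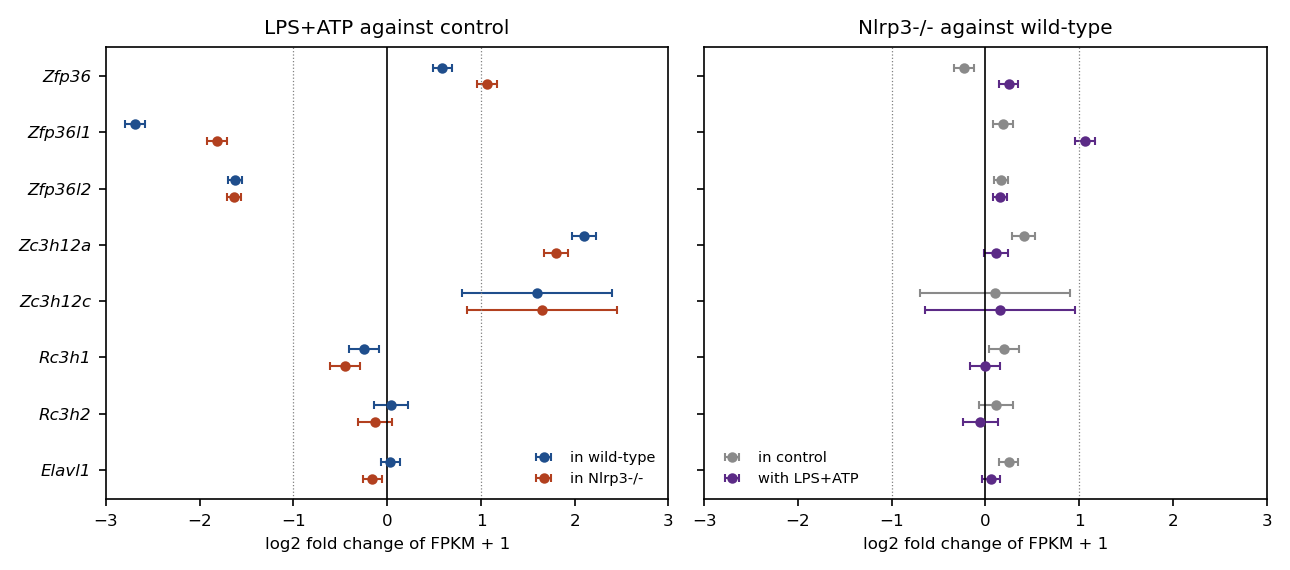
Log2 fold change of FPKM + 1 for each gene, with 95% intervals from limma, for LPS+ATP against control in each genotype (left) and Nlrp3-/- against wild-type in each treatment (right), with dotted lines at -1 and 1. Zfp36l1 with LPS+ATP, at 1.06, is the only genotype difference past a dotted line, and the intervals of both genotypes lie apart for Zfp36, Zfp36l1 and Zc3h12a on the left.

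Between genotypes, with LPS+ATP, Zfp36l1 was the only DEG among the 8 genes, 2.35-fold higher in Nlrp3-/- than in wild-type BMDMs (log2 fold change 1.06, SE 0.05, limma adjusted p = 1.52e-08). Of all tested genes, 5.05% were DEGs, 4.48% higher and 0.57% lower. After median-ratio scaling its log2 fold change was 0.91 (SE 0.05, limma adjusted p = 5.02e-08) and after upper-quartile scaling 0.96, both below the fold limit. By the adjusted p alone, Zfp36 (log2 fold change 0.25) and Zfp36l2 (0.16) were also higher, 3 of 8 against 48.5% of all tested genes, 35.9% higher and 12.6% lower. After median-ratio scaling only Zfp36l1 passed, Zfp36 was at 0.06 and Zfp36l2 at -0.03. The groups did not overlap for 5 of 8, against 57.9% of all tested genes. The median of the 8 genes was 0.135.

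Of the other genes, Zc3h12a had a log2 fold change of 0.11 between genotypes with LPS+ATP (95% interval -0.01 to 0.24, limma adjusted p = 0.128) and Elavl1 of 0.06 (95% interval -0.04 to 0.16, limma adjusted p = 0.313). Rc3h1 had -0.01 (95% interval -0.17 to 0.15) and Rc3h2 -0.05 (95% interval -0.23 to 0.13). After median-ratio scaling the values were -0.07, -0.10, -0.165 and -0.186 in the same order, and none of the 4 genes passed the adjusted p by limma. For Zc3h12c the interval was wide, -0.64 to 0.96, and without both libraries that stood apart the log2 fold change was 0.01 (SE 0.09, limma adjusted p = 0.956).

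In control BMDMs, 0 of the 8 genes were DEGs between genotypes by limma, against 6.71% of all tested genes, 6.02% higher and 0.689% lower, while the unadjusted p was under 0.05 for 6 of 8. The adjusted p alone passed for 6 of 8, 5 higher and 1 lower in Nlrp3-/- BMDMs, against 47.8%, 33.3% higher and 14.5% lower, and the groups did not overlap for 6 of 8, against 56.0% of all tested genes. Zc3h12a differed most, 1.36-fold higher (log2 fold change 0.41, SE 0.06, limma adjusted p = 0.000136). Zfp36 was the gene that was lower, 1.18-fold (log2 fold change -0.23, SE 0.05, limma adjusted p = 0.00192). Elavl1 (0.25), Rc3h1 (0.20), Zfp36l1 (0.19) and Zfp36l2 (0.17) were higher by less. After median-ratio scaling Zfp36 (-0.38) and Zc3h12a (0.26) were the 2 genes that passed. The median of the 8 genes was 0.176.

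Markers of other cells moved with genotype too. The summed FPKM of 5 fibroblast markers was 157 to 161 in wild-type control, 1160 to 1180 in Nlrp3-/- control, 180 to 183 in wild-type LPS+ATP and 890 to 905 in Nlrp3-/- LPS+ATP libraries, and all 5 were higher in every Nlrp3-/- library. The sum of 6 neutrophil markers was 313 to 348, 1710 to 1760, 103 to 120 and 475 to 501 FPKM in the same order, with 6 of 6 higher in Nlrp3-/- control and 5 of 6 in Nlrp3-/- LPS+ATP libraries. The sum of 8 macrophage markers was 19900 to 21100, 19000 to 19300, 11200 to 11300 and 10500 to 10800 FPKM. Most of it was Lyz2, at 17700 to 18800 FPKM in wild-type control. In each treatment 5 of 8 were lower in every Nlrp3-/- library, but not the same 5. Adgre1, Cd68 and Fcgr1 were lower in both treatments, Csf1r and Mrc1 in control only, and Mertk and Lyz2 with LPS+ATP only. In control, Mertk was higher in every Nlrp3-/- library, at 33.2 to 35.6 against 32.2 to 32.5 FPKM. T, B and mast cell markers summed to at most 3.51 FPKM, with Cd3e at or near 0 in all libraries. The part of these cells in the genotype and stimulation differences was not tested. In bulk RNA, fewer cells of a type and less RNA per cell cannot be told apart.

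The response to LPS+ATP itself differed between genotypes for 3 of the 8 genes by the adjusted p of the interaction, against 27.7% of all tested genes. As DEGs, 0 of 8 passed by limma, against 2.15%, and the unadjusted p was under 0.05 for 4 of 8. For Zfp36l1 the fall was smaller in Nlrp3-/- BMDMs, by 0.88 on the log2 scale (95% interval 0.73 to 1.03, limma adjusted p = 5.16e-06). For Zfp36 the rise was larger, by 0.48 (95% interval 0.33 to 0.63, limma adjusted p = 0.000339). For Zc3h12a the rise was smaller, with an interaction of -0.29 (95% interval -0.47 to -0.11, limma adjusted p = 0.0213), from a control level that was higher in Nlrp3-/- BMDMs. These values were 0.87, 0.44 and -0.34 after median-ratio scaling. The fall of Zfp36l2 differed by -0.01 between genotypes, with a 95% interval of -0.12 to 0.09 (limma adjusted p = 0.891). For Zc3h12c, with an interval of -1.07 to 1.19, a difference was not detectable. Elavl1 lay near the threshold with an interaction of -0.19 (limma adjusted p = 0.0505). After median-ratio scaling its interaction was -0.22 and passed (limma adjusted p = 0.0252). Without replicate 1 of wild-type control, 6 of the 8 genes passed.

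Genes of the machinery that the factors recruit were mostly lower with LPS+ATP, as was the typical gene, and few passed the fold limit. Lists were chosen with earlier results of these data known, and their counts are a description. Of 20 deadenylation genes, 1 was a DEG with LPS+ATP in wild-type and 0 in Nlrp3-/- BMDMs by limma, against 19.4% and 14.8% of all tested genes. By the adjusted p alone, 3 rose and 16 fell in wild-type and 2 rose and 16 fell in Nlrp3-/- BMDMs, against 76.4% and 74.3% of all tested genes in both directions, with a median log2 fold change of -0.404 and -0.37, against -0.255 and -0.242 for all tested genes. The DEG was Tob1, an adaptor between CCR4-NOT and poly(A)-binding protein, which fell from 8.45 ± 0.756 to 3.16 ± 0.207 FPKM (SD, n = 3; log2 fold change -1.18, limma adjusted p = 1.00e-08). Of 17 genes of decapping and decay from the cap, Dcp2, the decapping enzyme, rose from 5.93 ± 0.417 to 13.0 ± 0.0616 FPKM (SD, n = 3; log2 fold change 1.02, limma adjusted p = 7.17e-09), and Lsm5, of the ring that binds shortened tails, fell with a log2 fold change of -1.04 (limma adjusted p = 1.62e-06). Both were near the fold limit, and the count of 2 was 0 to 4 over the alternatives. These 2 of 17 compare with 19.4% of all tested genes. In Nlrp3-/- BMDMs 0 of 17 were DEGs, against 14.8%. Without the fold limit, 2 of the 17 rose and 10 fell in wild-type and 2 rose and 12 fell in Nlrp3-/- BMDMs. Of 16 exosome genes, 0 were DEGs by limma in either genotype, against the same shares. Without the fold limit, 1 rose and 10 fell in wild-type and 2 rose and 10 fell in Nlrp3-/- BMDMs. Of all tested genes, 23.3% rose and 53.1% fell in wild-type, and 20.6% rose and 53.8% fell in Nlrp3-/- BMDMs.

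Among 20 protein regulators of the factors, 4 were DEGs with LPS+ATP in each genotype, all higher. Of all tested genes, 8.25% were higher and 11.2% lower in wild-type, and 6.64% higher and 8.21% lower in Nlrp3-/- BMDMs. Taken over both directions, the background was 19.4% and 14.8%, and the total of 4 in 20 is near the first. Without the fold limit, 9 rose and 7 fell in wild-type BMDMs, against 23.3% and 53.1% of all tested genes. The median log2 fold change was 0.054, against -0.255. Malt1, the protease that cleaves Regnase-1 and Roquins, rose from 1.49 ± 0.271 to 28.3 ± 0.664 FPKM (SD, n = 3) in wild-type BMDMs (log2 fold change 3.56, limma adjusted p = 8.00e-12). Tank, which is known to bring Regnase-1 and deubiquitinating activity to TRAF6, rose from 8.0 ± 0.448 to 28.3 ± 0.822 FPKM (SD, n = 3; log2 fold change 1.71, limma adjusted p = 1.17e-10). Dusp1, a phosphatase that turns off p38, the kinase whose pathway controls TTP, rose from 9.55 ± 0.107 to 27.1 ± 0.765 FPKM (SD, n = 3; log2 fold change 1.41, limma adjusted p = 5.61e-11).

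Among 22 other RNA-binding regulators of mRNA stability with a test, 4 were higher and 2 lower as DEGs with LPS+ATP in wild-type BMDMs, and 1 was higher and 2 lower in Nlrp3-/- BMDMs, against 19.4% and 14.8% of all tested genes. Without the fold limit, 6 rose and 12 fell in wild-type BMDMs, against 23.3% and 53.1% of all tested genes. The median log2 fold change of -0.251 was close to that of all tested genes. Igf2bp2, which stabilizes bound mRNAs, rose from 3.33 ± 0.627 to 15.0 ± 1.06 FPKM (SD, n = 3; log2 fold change 1.89, limma adjusted p = 1.00e-08). N4bp1, an RNase related to Regnase-1, rose from 5.35 ± 0.161 to 17.5 ± 0.579 FPKM (SD, n = 3; log2 fold change 1.54, limma adjusted p = 1.23e-11). Celf2, which binds GU-rich elements, fell from 4.81 ± 0.596 to 1.06 ± 0.0831 FPKM (SD, n = 3; log2 fold change -1.495, limma adjusted p = 1.57e-08).

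Most known target mRNAs rose with LPS+ATP. Of 17 tested mRNAs with AU-rich elements, 13 were DEGs in wild-type and 15 in Nlrp3-/- BMDMs, all higher, against 8.25% and 6.64% of all tested genes. The filter on low FPKM favours such mRNAs, since some passed it only through their level with LPS+ATP: 3 of the 17 stayed under 1 FPKM in all 6 control libraries. Of the other 14, 10 in wild-type and 12 in Nlrp3-/- BMDMs were higher as DEGs. Il1b (log2 fold change 10.13), Il1a (8.67, limma adjusted p = 8.88e-17) and Ptgs2 (7.54) had the largest values in wild-type BMDMs. Their means in wild-type control were 0.239, 3.11 and 0.327 FPKM. For Il1b and Ptgs2 these lie under the filter minimum of 1 FPKM, so that only the size of the change is given. Tnf, which is bound by TTP as well as Regnase-1 and Roquin, rose from 7.49 ± 0.516 to 572 ± 12.3 FPKM (SD, n = 3) in wild-type BMDMs (log2 fold change 6.08, limma adjusted p = 1.29e-15). Of 10 tested stem-loop targets, 7 were higher and 1 lower as DEGs in each genotype. The shares of all tested genes were 19.4% in wild-type and 14.8% in Nlrp3-/- BMDMs. Of these targets, 2 stayed under 1 FPKM in all control libraries. Of the other 8, 5 were higher and 1 lower as DEGs in each genotype. Il6 went from 0.0446 ± 0.0334 to 41.6 ± 0.531 FPKM (SD, n = 3) in wild-type BMDMs. FPKM measures the level of an mRNA and not its half-life, so that decay itself was not measured. Between genotypes with LPS+ATP, Fos (log2 fold change 1.21, limma adjusted p = 1.34e-07) and Myc (1.20, limma adjusted p = 9.52e-07) were the DEGs of the AU-rich list, both higher in Nlrp3-/- BMDMs, 2 of 17 against 5.05% of all tested genes. Of the 17, by the adjusted p alone, 6 were higher and 9 lower, against 35.9% higher and 12.6% lower of all tested genes. The median of the 17 was -0.13, against 0.106 for all tested genes. In control BMDMs 3 were higher and 1 lower as DEGs, against 6.71% of all tested genes. There, 13 were higher and 2 lower by the adjusted p alone, against 33.3% higher and 14.5% lower of all tested genes. With LPS+ATP, Il12b was the DEG of the stem-loop list between genotypes and was lower (-1.54, limma adjusted p = 9.69e-08). Of the 10, 4 were higher and 4 lower by the adjusted p alone, against 35.9% and 12.6% of all tested genes. In control, 4 of the 10 stem-loop targets were DEGs, all higher in Nlrp3-/- BMDMs, against 6.71% of all tested genes. By the adjusted p alone 9 were higher there, against 33.3% of all tested genes, and the median was 0.65, against 0.088. The interaction was below -1 with an adjusted p under 0.05 for 5 of the 17 AU-rich mRNAs and 4 of the 10 stem-loop targets, against 2.15% of all tested genes in either direction. Both lists hold Il6, Tnf, Ptgs2 and Cxcl1, so that the counts can include the same genes. The interaction is the genotype difference with LPS+ATP minus that in control, so that a higher control level in Nlrp3-/- BMDMs lowers it.

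The genes most like a member were taken over 6548 genes with a mean of at least 5 FPKM, by the root mean square (RMS) of the difference of gene-centred log2(FPKM + 1) over the 12 libraries. Zfp36l1 was most like Lmnb1 (RMS 0.153), which encodes lamin B1, and Kif20a (RMS 0.17), a kinesin of mitosis, against an RMS of 1.189 for Zfp36l1 itself. Mean FPKM of Lmnb1 was 11.3 in wild-type control, 1.14 in wild-type LPS+ATP, 14.7 in Nlrp3-/- control and 4.15 in Nlrp3-/- LPS+ATP. Zfp36 was most like Hyou1 (RMS 0.097), a chaperone of the endoplasmic reticulum, and Hvcn1 (RMS 0.098), a proton channel. Zfp36l2 was most like Eid1 (RMS 0.069) and Klhl9 (RMS 0.104). Zc3h12a was most like Cxcl16 (RMS 0.073), a chemokine, with 32.3, 127, 42.1 and 142 FPKM in the same order of groups, and Glrx (RMS 0.08), a glutaredoxin. For Zc3h12c the nearest genes, Igsf8 and 2210406H18Rik, were both at an RMS of 0.392, against 0.915 for the gene itself.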

How the data were processed

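The 12 libraries came from BMDMs of both genotypes, either untreated or given LPS+ATP, with 3 libraries for each combination. The authors deposited FPKM per gene and library. The aligner and counter are not given in the sources used here, and the submitters' processing notes name GRCm39 and DESeq2 1.24.0 without their role. No gene positions are given, since the reference in use was GRCm38, and RefSeq promoters keep their GRCm38.p6 coordinates.

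Genes that reached an FPKM of 1 in 3 or more of the 12 libraries were kept. Their log2(FPKM + 1) values went into limma 3.58.1, run in R 4.3.3, in a fit of the 4 group means with a trend in the variance, and p-values were adjusted by the Benjamini-Hochberg method. The step was also run on simulated data with independent noise and planted shifts above the fold limit. That run checks only that such shifts are found, and not how well the fit suits these data. All 8 genes were named, and from each list up to 3 DEGs of largest change with LPS+ATP in wild-type and up to 2 between genotypes with LPS+ATP. The members and lists were chosen with earlier results of these data known. Near copies and overlaps were searched in GENCODE M21. Among the overlapping genes with a row, Gm44710 (over Zfp36) reached 1.6 FPKM and Ccl25 (over Elavl1) 1.06 FPKM, and the small genes over Rc3h1, Rc3h2 and Zc3h12c at most 0.159 FPKM. Depth in reads is unknown, so that no counting interval is given.

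The settings varied were the pseudocount (0.1), the filter (none, or FPKM of 5), TPM, scaling by the upper quartile or by median ratios, the replicate number as a block, a variance without trend, fits of only the groups compared, and leaving out each library. Tables and plots used Python 3.11.15, pandas 2.3.3 and matplotlib 3.10.9.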

Additional observations from a re-analysis of the deposited data

Results flagged for a closer look

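Of the 8 genes, 3 had a response to LPS+ATP that differed between the genotypes by the adjusted p of the interaction term in limma, against 27.7% of all tested genes. It was 0.876 on the log2 scale for Zfp36l1, whose fall was smaller in Nlrp3-/- BMDMs, 0.479 for Zfp36, whose rise was larger, and -0.292 for Zc3h12a, whose rise was smaller. Each of the 3 Nlrp3-/- LPS+ATP libraries lay above each of the 3 wild-type LPS+ATP libraries for all 3 genes, while 57.9% of all tested genes did not overlap either. For Zc3h12a this difference did not pass (log2 fold change 0.114, limma adjusted p = 0.128). It was -0.003 after upper-quartile and -0.073 after median-ratio scaling, where Zfp36 was at 0.061 and did not pass. In control, Zfp36 was lower in every Nlrp3-/- library, while Zc3h12a and Zfp36l1 were higher in every one. There, 56.0% of all tested genes did not overlap.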

How the results depend on the processing

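Over 22 alternative settings, 40 log2 fold changes gave 867 values, of which 832 kept direction and side of the DEG limits, and 26 of the 40 did so throughout. Under median-ratio scaling 2 of the 8 genes passed the adjusted p between genotypes in control and 1 with LPS+ATP, and under median-ratio and upper-quartile scaling 0 were DEGs with LPS+ATP, with Zfp36l1 at 0.909 and 0.964. Values that changed sign under median-ratio scaling were, with stimulation, Rc3h1 in wild-type at 0.026 and, in Nlrp3-/- BMDMs, Rc3h2 at 0.065 and Elavl1 at 0.087. Between genotypes they were Zc3h12c at -0.015 in control and, with LPS+ATP, Zfp36l2 at -0.029, Zc3h12a at -0.073, Zc3h12c at -0.017 and Elavl1 at -0.1, and the interaction of Zc3h12c at -0.002. Upper-quartile scaling turned Zc3h12a to -0.003 and Elavl1 to -0.04 between genotypes with LPS+ATP. The construction of these scalings lowers the genotype values by the shift of the typical gene. In TPM, Rc3h1 between genotypes with LPS+ATP was 0.011 and the interaction of Zfp36l2 0.007. The interaction of Zfp36l1 passed the fold limit with a pseudocount of 0.1 (1.023, 1 DEG) and in TPM (1.004, 1 DEG). Under median-ratio scaling the interaction of Elavl1, at -0.218, passed the adjusted p (limma adjusted p = 0.0252).

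Leaving out each library gave 2 to 6 of 8 genes past the adjusted p of the interaction, 6 without replicate 1 of wild-type control. Rc3h2 with stimulation in wild-type ran from -0.027 to 0.147. Between genotypes with LPS+ATP, Zc3h12c ran from -0.322, without replicate 3 of wild-type LPS+ATP, to 0.487, without replicate 2 of Nlrp3-/- LPS+ATP, and Rc3h1 from -0.04 to 0.036. The interactions of Zfp36l2 and Zc3h12c ran from -0.033 to 0.013 and from -0.421 to 0.388. Without both libraries in which Zc3h12c stood apart, a choice made after the data were seen, Rc3h1 between genotypes with LPS+ATP was 0.005 and the interactions of Zfp36l2 and Zc3h12c 0.012 and -0.091. The cause of these changes was not tested.

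Libraries with the same replicate number shared no clear deviation, and the labels do not say whether they were paired. Deviations of same-numbered libraries correlated at -0.0565 to 0.0528, and 4 of 12 libraries correlated best with their own number. With the replicate block, the DEGs among the 8 genes were 4, 5, 0 and 1 in the order of the report's stimulation and genotype comparisons with control before LPS+ATP, and 0 for the interaction, the same counts as without it. No read counts were available to set counting error.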
